A study of Bos taurus with 20 samples.

Results

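The adipogenic transcription factors are the proteins that turn a precursor cell into a fat cell, and they were followed here in bovine muscle through the genes PPARG, CEBPA, CEBPB, CEBPD and SREBF1, together with DLK1. DLK1 is a membrane protein and no transcription factor, and it stands in the set as the brake on the same step. Every probe set that the platform annotation gives to exactly 1 of these symbols was taken, also where it was dim. That gave 6 genes with 13 probe sets, of 9155 genes with such a probe set in all. The tissue was Musculus longissimus dorsi, the long back muscle, of 20 F2 bulls from Holstein, a dairy breed, crossed with Charolais, a beef breed. Its 10 bulls with high intramuscular fat (IMF), the fat laid down between muscle fibres, were compared with 10 bulls with low IMF, with 1 Affymetrix array per bull. The labels give no age, diet or treatment and no measured fat content. In each IMF group 5 bulls carry a title number with an S and 5 a number without it, a letter whose meaning the labels leave unsaid. These 2 title series are named S bulls and bulls without S, and intensities of the brightest probe set of each gene are given for both.

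In mouse cell culture models of fat cell formation, C/EBPβ and C/EBPδ (CEBPB, CEBPD) act early and switch on PPARG and CEBPA. PPARγ and C/EBPα then hold each other on and drive the genes of the mature fat cell, among them FABP4, which encodes its fatty acid binding protein. SREBF1 encodes the factor that drives fatty acid synthesis genes, in fat, liver and muscle. DLK1, also called preadipocyte factor, holds precursor cells back from differentiating and is an imprinted gene. CEBPB, CEBPD and SREBF1 are made in many cell types, muscle fibres included.

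Values are intensities per probe set, and differences are on the scale of log2(intensity + 1), which understates the change of dim probe sets. A probe set counted as called where the adjusted p of the limma fit, over all 24016 probe sets that are not array controls, was under 0.05 by the Benjamini-Hochberg method. Of the 13 probe sets, 8 lay above the dimmest 40% of all probe sets by mean, and 5 did not. The 5 dim ones include the only probe sets of PPARG and of CEBPA. The others are CEBPD probe set 3, SREBF1 probe set 4 and DLK1 probe set 2, numbered from the brightest within each gene. CEBPB has 2 probe sets, CEBPD 3, SREBF1 4 and DLK1 2. Brightness depends on the probes themselves, so no gene's intensity was set against another gene's.

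Muscle fibre markers were bright on every array, as the tissue label has it. The summed intensity of 5 muscle fibre markers lay between 72962 and 83597 on all 20 arrays. All of 5 measured fat cell markers (FABP4, ADIPOQ, CIDEC, LEP and LIPE) were above 0, with sums of 1071 to 18122 in high IMF bulls (median 2812) and 335.4 to 9372 in low IMF bulls (median 1048). On 4 arrays the albumin signal was over 2000, against 245.2 to 468.8 on the rest, and the sum of 7 liver markers reached 86627 in the S bulls with high IMF and 106882 in the bulls without S with low IMF, against at most 1097 in the sets without such an array. The 4 arrays belonged to high IMF replicates 6, 8 and 10, all S bulls, and to low IMF replicate 3, a bull without S. Calls lost without these 4 arrays, and the larger shifts in uncalled values, are given with each of the 6 genes. The arrays' median intensity ran from 51.6 to 67.6, with the lowest medians in high IMF replicates 6 and 9.

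None of the 13 probe sets was called between high and low IMF. The background was 0% as well, since 0 of 24016 probe sets passed limma's test (lowest adjusted p = 0.818), while 1412 had an unadjusted p under 0.05, 2 of them among the 13. Within the S bulls 0 of 13 were called as well (background 0%), and without the arrays with high albumin, which leaves 2 S bulls with high IMF, limma called 6 of 24016 probe sets there, all lower in high IMF (lowest adjusted p = 0.00339) and none of them among the 13. Within the bulls without S 0 of 13 were called (background 0%), as for the difference of the IMF contrast between the title series (0 of 13, background 0%). No probe set had all its high IMF values on one side of all its low IMF values over the 20 bulls (0 of 13, background 0%). Within the S bulls 0 of 13 were apart in this way against a background of 1.10%, and within the bulls without S 0 of 13 against 0.608%. In bulk muscle, fewer cells of a type and less RNA per cell cannot be told apart, and this holds for each value below. The p-values rest on the spread between bulls, each of which gave 1 array, so bull and array cannot be told apart in that spread.

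**Figure D1:**
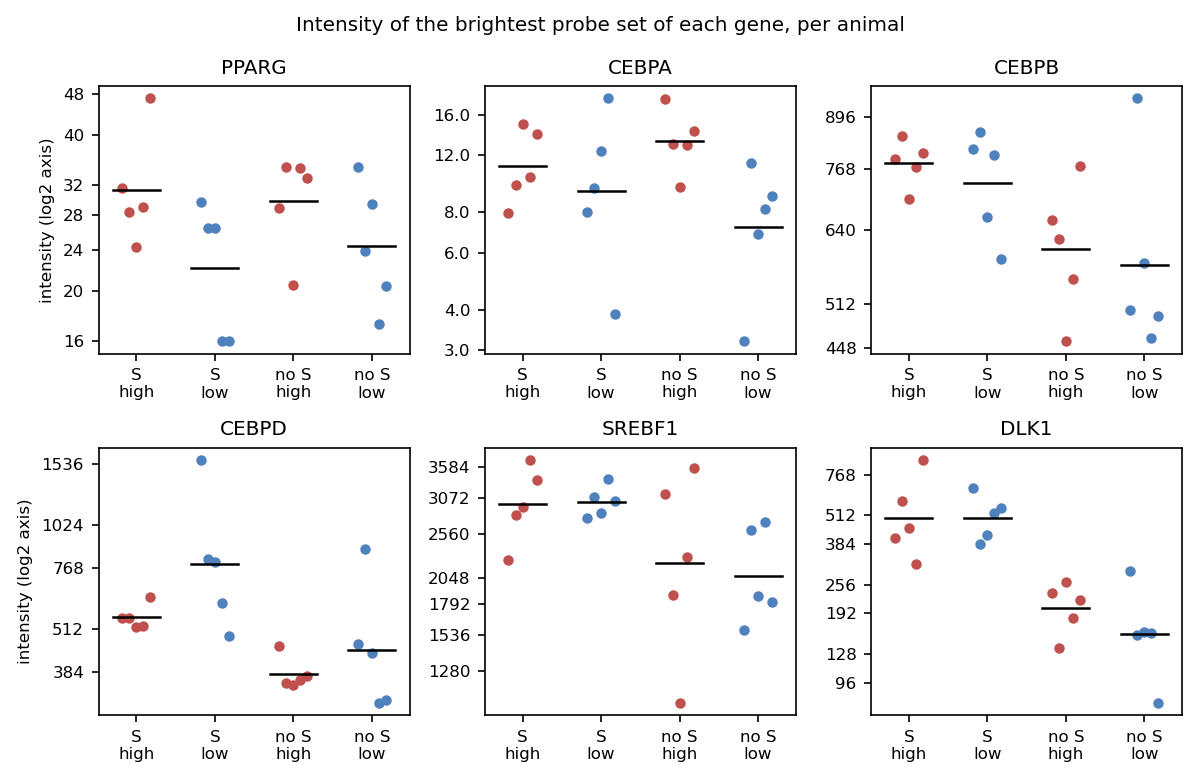
Intensity of the brightest probe set of each gene (y axis, log2 scale), with 1 point per bull, high IMF in red and low IMF in blue, split by title series, and a black bar at the mean of the log2 values. PPARG and CEBPA have higher means in high IMF in both title series with overlapping points, and DLK1 separates the S bulls (315 to 891) from the bulls without S (78.7 to 294).

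CEBPB and CEBPD, the early factors, were not called between high and low IMF. The brightest CEBPB probe set read 790.3, 848, 702, 771 and 805 in the S bulls with high IMF, against 814, 856, 665, 802 and 585 in the S bulls with low IMF. Without S it read 658, 622, 458, 551 and 774 with high IMF, against 503, 949, 579, 463 and 493.1 with low IMF. The IMF groups overlapped in both title series, and the highest value of all was that of a low IMF bull without S, replicate 2. High minus low IMF came to 0.08 log2 units (SE 0.13, limma adjusted p = 0.941), and to -0.04 (SE 0.14, adjusted p = 0.977) on the second CEBPB probe set.

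CEBPD had a lower mean in high IMF on its brighter probe sets, within the spread between bulls. Its brightest probe set read 551, 549, 517, 519 and 631 in the S bulls with high IMF, against 1584, 818, 800.5, 608 and 486 in the S bulls with low IMF. The high IMF values lay close together, while 3 of 5 low IMF S bulls read above all of them and 1 below all of them. Among bulls without S it read 456, 357, 350.2, 363 and 374 with high IMF, against 462, 874, 436, 312 and 318 with low IMF. The SD of the log2 values was 0.12 and 0.15 in the high IMF sets (S and without S), and 0.64 and 0.60 in the low IMF sets (n = 5 each). High minus low IMF was -0.37 log2 units (SE 0.19, 0.771-fold), at -0.51 in the S bulls and -0.23 in the bulls without S. It did not pass limma's test (adjusted p = 0.818). Without low IMF replicate 6, the S bull at 1584, it was -0.25 over both series and -0.26 in the S bulls, and without low IMF replicate 2, at 874, it was 0.0094 in the bulls without S. The second CEBPD probe set gave -0.34 (SE 0.23) and the dim probe set 3 gave 0.16 (SE 0.15), so the probe sets of the gene did not point the same way. Over the 10 S bulls the first and second probe sets had r = 0.976, and over the 10 without S r = 0.865. Probe sets 1 and 3 had r = -0.103 and 0.502.

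In the bulls without S, the brightest probe sets of CEBPB and CEBPD were positively correlated (r = 0.754, rho = 0.697, n = 10, permutation p = 0.0162 and 0.0316). The low IMF bull replicate 2 had the highest value of both genes there. In the S bulls r was 0.315 (rho = 0.588, n = 10, permutation p = 0.353 and 0.0811). Without the pair of bulls farthest from the median of CEBPB, r was 0.549 in the bulls without S and 0.376 in the S bulls (n = 8 each). In all, 80 relations of this kind were computed. All probe sets were also fitted by limma on each of the 6 genes in turn, with title series in the model, and 0 passed for any of them. The brightest CEBPD had an adjusted p of 0.436 in the fit on CEBPB, and the brightest CEBPB 0.381 in the fit on CEBPD. Over all probe sets and all of these fits the lowest adjusted p was 0.0512, in the fit on CEBPB.

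PPARG, the factor that commits a cell to the fat cell fate, had a higher mean in high IMF in both title series, within the spread between bulls. Its intensities were 31.5, 28.4, 24.4, 29.1 and 47.1 in the S bulls with high IMF, against 29.7, 26.5, 26.4, 15.99 and 15.98 in the S bulls with low IMF. High IMF replicate 10 had the highest value of all 20 bulls and low IMF replicates 9 and 10 the lowest, and the other S bulls overlapped. In the bulls without S they were 28.9, 34.7, 20.6, 34.5 and 33.1 with high IMF, against 34.7, 23.9, 29.5, 17.2 and 20.4 with low IMF. Here 1 low IMF bull matched the highest high IMF value. The 10 high IMF bulls averaged 4.980 ± 0.311 log2 units (SD), against 4.601 ± 0.385 in the 10 low IMF bulls. High minus low IMF was 0.38 (SE 0.16, 1.30-fold). It was 0.48 in the S bulls and 0.28 in the bulls without S, and limma did not call it (unadjusted p = 0.0287, adjusted p = 0.818). Without the 4 arrays with high albumin it was 0.35 (SE 0.19), and with a pseudocount of 16 in place of 1 it was 0.24. The difference lay at percentile 96.0 of those of all probe sets.

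CEBPA, which keeps PPARG on and is needed for full insulin response of fat cells, was dim, with its mean intensity at percentile 12.3 of all probe sets. Its intensities were 7.95, 9.74, 14.9, 10.3 and 14.0 in the S bulls with high IMF, against 8.0, 9.52, 12.4, 18.02 and 3.87 in the S bulls with low IMF. The low IMF S bulls spanned the whole range, from the lowest to the highest of the 10. Among bulls without S they were 17.9, 13.0, 9.57, 12.9 and 14.2 with high IMF, against 3.19, 11.3, 6.84, 8.18 and 8.95 with low IMF. Only the lowest high IMF bull and the highest low IMF bull overlapped there. High minus low IMF was 0.51 log2 units (SE 0.22, 1.43-fold), with 0.23 in the S bulls and 0.80 in the bulls without S. With a pseudocount of 16 in place of 1, these were 0.20, 0.07 and 0.32. It was not called by limma over both series (unadjusted p = 0.0334, adjusted p = 0.818) or as a difference between them (-0.57, SE 0.45, adjusted p = 0.923). The arrays with high albumin read 7.95, 14.9 and 14.0 in high IMF, the last 2 being the highest of the S bulls with high IMF, and 6.84 in low IMF. Without these 4 arrays the difference was 0.44 (SE 0.29), with 0.09 in the S bulls and 0.78 in the bulls without S. Liver also makes CEBPA, and the part of the liver markers in these values was not tested.

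**Figure D2:**
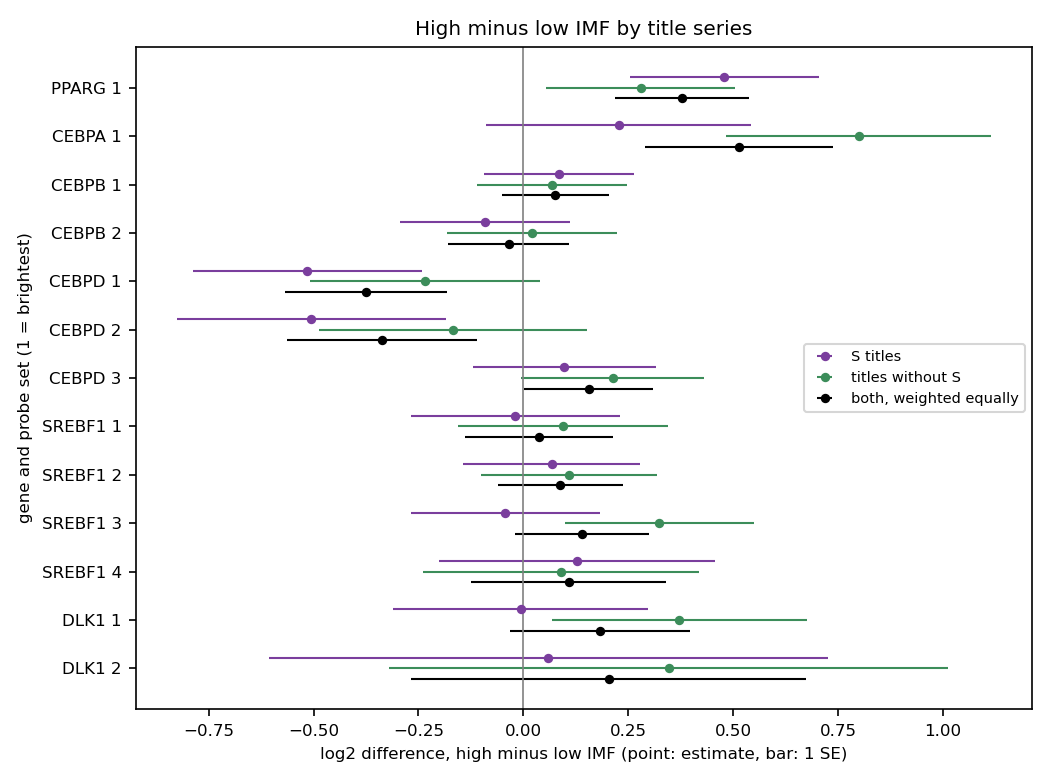
Log2 difference of high minus low IMF (x axis) for the 13 probe sets (y axis, 1 = brightest of its gene), in S bulls, in bulls without S and in both weighted equally, with bars of 1 SE. PPARG (0.38) and CEBPA (0.51) lie above 0 and the 2 brighter CEBPD probe sets (-0.37 and -0.34) below it, and none passed limma's test.

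SREBF1, the driver of fatty acid synthesis genes, was not called between the IMF groups on any of its 4 probe sets. The brightest read 2242, 2821, 2923, 3722 and 3355 in the S bulls with high IMF, against 2769, 3078, 2836, 3378 and 3023 in the S bulls with low IMF. It read 3131, 1881, 1089, 2276 and 3568 in the bulls without S with high IMF, against 1572, 2606, 1867, 2710 and 1811 in those with low IMF. High IMF replicates 3 and 5 of the bulls without S held the lowest value of the 20 and the highest but 1. High minus low IMF was 0.04 log2 units (SE 0.18), and 0.09, 0.14 and 0.11 on the other 3 probe sets, with adjusted p of 0.908 to 0.979. Without the 4 arrays with high albumin the 4 probe sets gave 0.08, 0.17, 0.23 and 0.03, none called. In the bulls without S probe set 1 had r = 0.985 with probe set 2 and 0.807 with probe set 3 (n = 10). In the S bulls these were 0.764 and 0.154. The dim probe set 4 had r between -0.402 and 0.378 with the other 3.

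DLK1, the brake on differentiation, gave high minus low IMF differences of 0.18 (SE 0.21) and 0.20 log2 units (SE 0.47), neither called (adjusted p = 0.910 and 0.957). Its brighter probe set read 408, 589.9, 448, 315 and 891 in the S bulls with high IMF, against 670.0, 383, 422, 523 and 548 in the S bulls with low IMF. Among bulls without S it read 235, 136.2, 262, 183 and 219 with high IMF, against 294, 156, 159.9, 159 and 78.7 with low IMF. The difference was -0.0061 log2 units in the S bulls and 0.37 in the bulls without S, and the test of the difference between the series did not pass (-0.38, SE 0.43, adjusted p = 0.933). In both series the values of high and low IMF bulls overlapped. Without the 4 arrays with high albumin the brighter probe set gave 0.09 over both series (SE 0.26) and -0.21 in the S bulls, and the dim one 0.02 over both (SE 0.48). Without low IMF replicate 5, the bull at 78.7, the brighter one gave 0.06 over both series and 0.13 in the bulls without S.

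Between the title series, both DLK1 probe sets and SREBF1 probe sets 2 and 3 had the largest differences of the 13, while the brightest SREBF1 probe set lay below the brightest CEBPD one (0.49 and 0.69 log2 units). In S minus without S, 7 of 13 probe sets were called, all of them higher in the S bulls. This share was near the background, since limma called 52.0% of all 24016 probe sets and 24.5% as higher in the S bulls, so the count itself is no result about these genes. Within it, DLK1 was 2.80-fold higher (log2 difference 1.49, SE 0.21, adjusted p = 1.46e-05) on its brighter probe set and 3.02-fold higher (1.59, SE 0.47, adjusted p = 0.00834) on the dim one, where a pseudocount of 16 in place of 1 gave a log2 difference of 0.74. These lay at percentiles 99.3 and 99.5 of the differences of all probe sets. The S bulls read 315.2 to 891 on the brighter one, all above the 78.7 to 294 of the bulls without S.

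SREBF1 was higher in the S bulls on 3 of 4 probe sets. Probe set 2 read 444.6 to 783 in the S bulls (median 514.0), against 159.8 to 397 in the bulls without S (median 274.5). Probe set 3 read 69.7 to 111 in the S bulls (median 75.2), against 20.4 to 61.9 in the bulls without S (median 35.5). Neither overlapped between the series. The log2 differences were 0.98 (SE 0.15) and 1.16 (SE 0.16), at percentiles 96.2 and 97.9 of all probe sets, while the brightest gave 0.49 (SE 0.18, adjusted p = 0.0274) and the dim probe set 4 gave 0.30 (SE 0.23, adjusted p = 0.301). The probe sets of SREBF1 thus ranged from 0.30 to 1.16 in their log2 difference. Over all 13, 3 probe sets had every S value above every other value, these 2 and the brighter DLK1 one, against a background of 13.1% of all probe sets apart in either direction.

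CEBPB was called on its brighter probe set (0.37, SE 0.13, adjusted p = 0.0215) and not on the second (0.29, SE 0.14, adjusted p = 0.0942). CEBPD was called on its brightest (0.69, SE 0.19, adjusted p = 0.00620) and not on the other 2 (0.27 and 0.23, adjusted p = 0.329 and 0.223). PPARG and CEBPA had differences of -0.03 (SE 0.16) and 0.05 (SE 0.22), with adjusted p of 0.879 and 0.878. Without the 4 arrays with high albumin, 4 of 13 probe sets were called, and the brightest ones of CEBPB, CEBPD and SREBF1 no longer passed (adjusted p = 0.0760, 0.0532 and 0.0731). Their log2 differences were then 0.39, 0.66 and 0.53, close to those over all arrays, with SEs of 0.17, 0.26 and 0.23. The brightest SREBF1 probe set also no longer passed without low IMF replicate 1 (adjusted p = 0.0529).

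The hybridisation controls, RNA spiked into each array, moved with the title series. Their summed intensity was 20256 to 31400 in the S bulls, against 30857 to 36278 in the bulls without S. The summed macrophage markers were 236.9 to 377 in the S bulls, against 100.7 to 243.9 in the bulls without S (3 of 5 measured, none at 0). The 6 fibroblast and preadipocyte markers, a cell class known to make DLK1, summed to 6236 to 13412 (median 10254) in the S bulls, against 5798 to 19853 (median 10342) in the bulls without S. The 5 fat cell markers summed to 486.3 to 18122 (median 2943) in the S bulls, against 335.4 to 4120 (median 1196) in the bulls without S. COL3A1 and DCN, with mean intensities of 6409 and 2852 over all arrays, weigh most in the fibroblast and preadipocyte sum. The part of the controls and of the macrophage, fibroblast and preadipocyte, and fat cell markers in the differences above was not tested. The title series and a batch of arrays cannot be told apart.

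**Figure D3:**
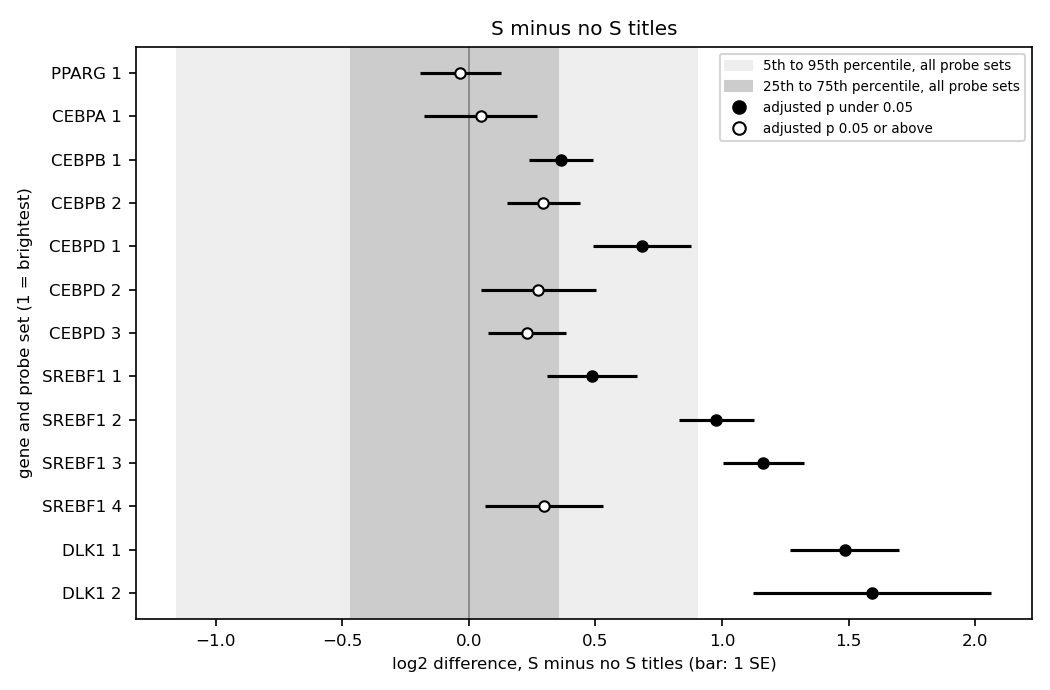
Log2 difference of S bulls minus bulls without S (x axis) for the 13 probe sets (y axis, 1 = brightest of its gene) with bars of 1 SE, filled where adjusted p was under 0.05, over grey bands for the middle of all probe sets. DLK1 (1.49 and 1.59) and SREBF1 probe sets 2 and 3 (0.98 and 1.16) lie beyond the 95th percentile of all probe sets at 0.90, and PPARG (-0.03) and CEBPA (0.05) lie near 0.

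FABP4 was used as a stand-in for fat cell RNA within each title series, and the part of other cell types in its signal was not tested. It read 6075, 1703, 2669, 679 and 7902 in the S bulls with high IMF, against 4076, 375, 1030, 107 and 887 in the S bulls with low IMF. It read 2086, 523, 487, 764 and 756 in the bulls without S with high IMF, against 1080, 481, 338, 248 and 72.0 in those with low IMF. The IMF groups overlapped in both series. High minus low IMF of FABP4 was 1.65 log2 units (SE 0.61, 3.14-fold), with 1.99 in the S bulls and 1.32 in the bulls without S. It was not called by limma over both series (unadjusted p = 0.0146, adjusted p = 0.818). ADIPOQ, which encodes the fat cell hormone adiponectin, followed FABP4 with r = 0.897 in the S bulls and 0.943 in the bulls without S. Its probe set was dim, with a mean intensity of 40.9 at percentile 38.6 of all probe sets.

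Over all 20 arrays PPARG and the brighter DLK1 probe set had the steepest slopes on FABP4 of the 13, and neither was called. With title series in the limma model, 0 of 13 probe sets passed, against a background of 0.433% of 24014 probe sets (104, of which 98 positive). Within the S bulls 0 of 13 passed (background 0.212%), within the bulls without S 0 of 13 (background 0.0125%), and for the difference of the slopes 0 of 13 (background 0%). PPARG had a slope of 0.17 log2 units per log2 unit of FABP4 (SE 0.04, unadjusted p = 0.000760, adjusted p = 0.108), with 0.17 in each title series. Its r with FABP4 was 0.736 in the S bulls (rho = 0.685, n = 10, permutation p = 0.0168 and 0.0358) and 0.624 in the bulls without S (rho = 0.681, n = 10, permutation p = 0.0481 and 0.0351). Without the pair of bulls farthest from the median FABP4, r was 0.364 in the S bulls and 0.746 in the bulls without S (n = 8 each). In the S bulls that pair was high IMF replicate 10 (PPARG 47.1) and low IMF replicate 9 (PPARG 15.99). Leaving out a pair also narrows the range of FABP4, and whether the relation rests on those bulls was not tested. Without any 1 animal the slope over both series ran from 0.144 to 0.185. Without the 4 arrays with high albumin the slope was 0.16 (SE 0.05, adjusted p = 0.320).

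DLK1 had a slope of 0.18 (SE 0.06, adjusted p = 0.309) on its brighter probe set, with 0.10 in the S bulls and 0.35 in the bulls without S. The difference of these slopes was -0.25 (SE 0.11, adjusted p = 0.9995) and was not called. Its r with FABP4 was 0.431 in the S bulls (rho = 0.491, n = 10, permutation p = 0.217 and 0.157) and 0.826 in the bulls without S (rho = 0.697, n = 10, permutation p = 0.00519 and 0.0311). Without the farthest pair of bulls r was 0.437 and 0.614. The lowest DLK1 value, 78.7, and the lowest FABP4 value, 72.0, belonged to the same bull, low IMF replicate 5. The dim DLK1 probe set had a slope of 0.08 (SE 0.15), which was 0.14 (SE 0.15) without the arrays with high albumin, and r of 0.142 and 0.109.

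SREBF1 had slopes on FABP4 from -0.02 to 0.05 over both title series, and on its 4 probe sets the slope was below 0 in the S bulls and above 0 in the bulls without S. Its brightest probe set had a slope of -0.0030 (SE 0.06), with -0.05 in the S bulls and 0.10 in the bulls without S. Its r was -0.501 in the S bulls (rho = -0.576, n = 10, permutation p = 0.140 and 0.0875) and 0.265 in the bulls without S (rho = 0.212, n = 10, permutation p = 0.460 and 0.557). Probe set 3 had r = 0.647 in the bulls without S (rho = 0.564, n = 10, permutation p = 0.0425 and 0.0956). It was 0.151 without the farthest pair of bulls, over a narrower range of FABP4. The slope of probe set 3 in the bulls without S was 0.23 (SE 0.08, unadjusted p = 0.0102, adjusted p = 0.683), steeper than PPARG's 0.17. In the S bulls it was -0.04 (SE 0.05). The difference of these slopes was -0.26 (SE 0.10, unadjusted p = 0.0131, adjusted p = 0.9995). CEBPA had a slope of -0.0032 (SE 0.08), the brightest CEBPB 0.03 (SE 0.04) and the brightest CEBPD 0.06 (SE 0.07). The second CEBPD probe set had a slope of 0.09 (SE 0.07). Without the 4 arrays with high albumin these CEBPD slopes were 0.14 (SE 0.08, adjusted p = 0.592) and 0.19 (SE 0.09, adjusted p = 0.489), the second then steeper than PPARG's 0.16. The CEBPA slope was then -0.06 (SE 0.11) and that of SREBF1 probe set 3 was 0.11 (SE 0.07). Over the 13 probe sets, r with FABP4 ran from -0.533 to 0.736 in the S bulls, with 8 of 13 positive, and from 0.087 to 0.826 in the bulls without S, with 13 of 13 positive. Over all 24014 probe sets 43.1% of the slopes were positive in the S bulls and 58.6% in the bulls without S.

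**Figure D4:**
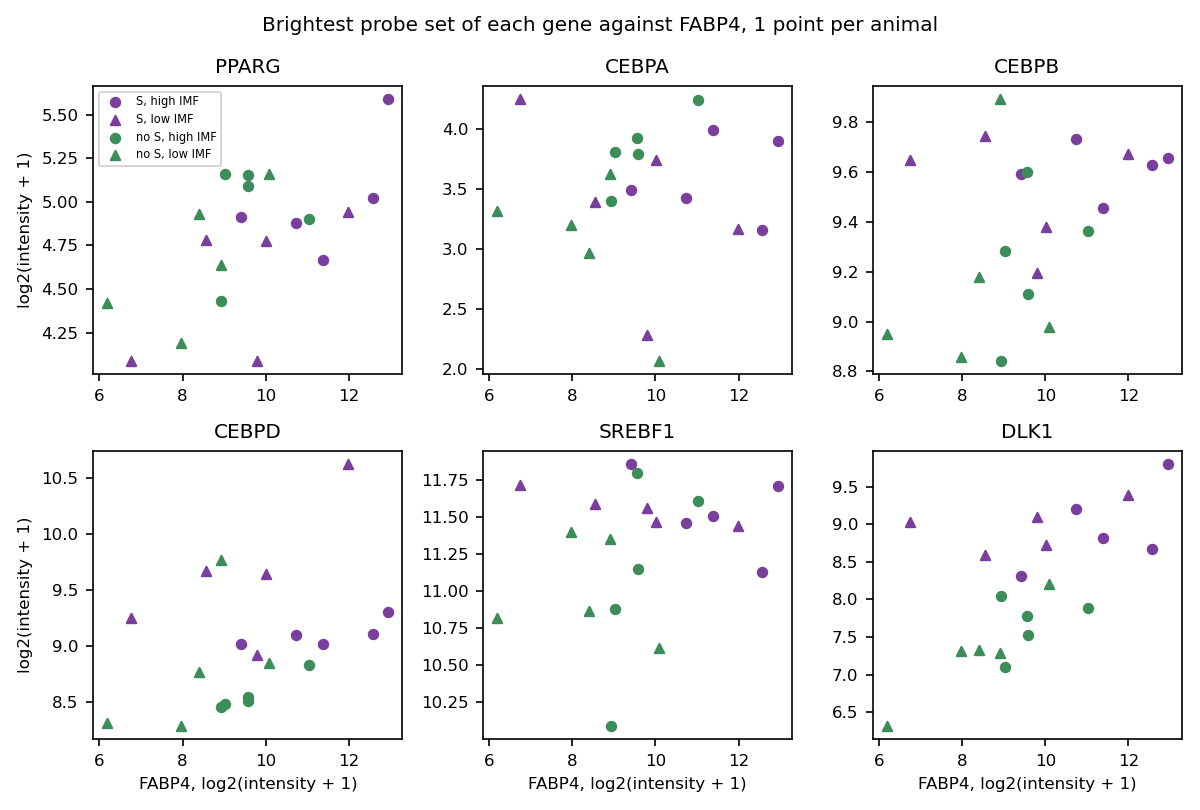
Log2(intensity + 1) of the brightest probe set of each gene (y axis) against that of FABP4 (x axis), with 1 point per bull, S bulls in purple and bulls without S in green, circles for high and triangles for low IMF. PPARG goes with FABP4 in both title series (r = 0.736 and 0.624), DLK1 has r = 0.431 in the S bulls and 0.826 in the bulls without S, and SREBF1 -0.501 and 0.265.

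Many of the genes that these factors drive rose with FABP4 over all 20 arrays. Without the 4 arrays with high albumin, limma called 41 probe sets in all for this slope, against 104 over all arrays. High IMF replicates 6 and 10, among those arrays, had the highest FABP4 values (6075 and 7902). The target genes are given over all arrays only. The part of the liver markers in their slopes and IMF differences was not tested. Of 13 measured target genes of PPARG and CEBPA other than FABP4, 6 rose with it, and 7 did not pass. The median slope was 0.32, against 0.0045 over 9154 genes, of which 0.644% were called. CIDEC, a protein of the lipid droplet, had a slope of 1.0 (SE 0.04, adjusted p = 3.11e-11). LEP, the hormone leptin, had 1.27 (SE 0.20, adjusted p = 0.00373) and ADIPOQ 0.59 (SE 0.06, adjusted p = 4.08e-05), both on dim probe sets. RBP4 (0.56), the hormone-sensitive lipase LIPE (0.36) and CIDEA (0.32) also rose. PCK1, which makes glycerol for triglycerides, had a slope of 0.61 (adjusted p = 0.0922). LPL, CD36, ACSL1, GPD1, AGPAT2 and AQP7, several of which muscle fibres also make, had slopes from -0.02 to 0.11.

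Of 10 measured SREBF1 target genes, 7 rose with FABP4 and 3 did not pass, with a median slope of 0.34. THRSP, a regulator of fatty acid synthesis, had a slope of 1.03 (SE 0.13, adjusted p = 1.92e-04), and DGAT2, which completes triglycerides, 0.51 (SE 0.07, adjusted p = 9.60e-04). ELOVL6 (0.83), SCD (0.45), FASN (0.42), ACSS2 (0.26) and ACLY (0.25), all enzymes of fatty acid synthesis, rose too. GPAM (0.15), ME1 (0.06) and ACACA (-0.04) did not pass. SREBF1's own slopes, -0.0030 on its brightest probe set and -0.02 to 0.05 over all 4, stand beside these. The difference between its slopes and those of the targets was not tested. The target lists were written with earlier results of these data known, and FABP4 is itself such a target, so their counts are descriptions.

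**Figure D5:**
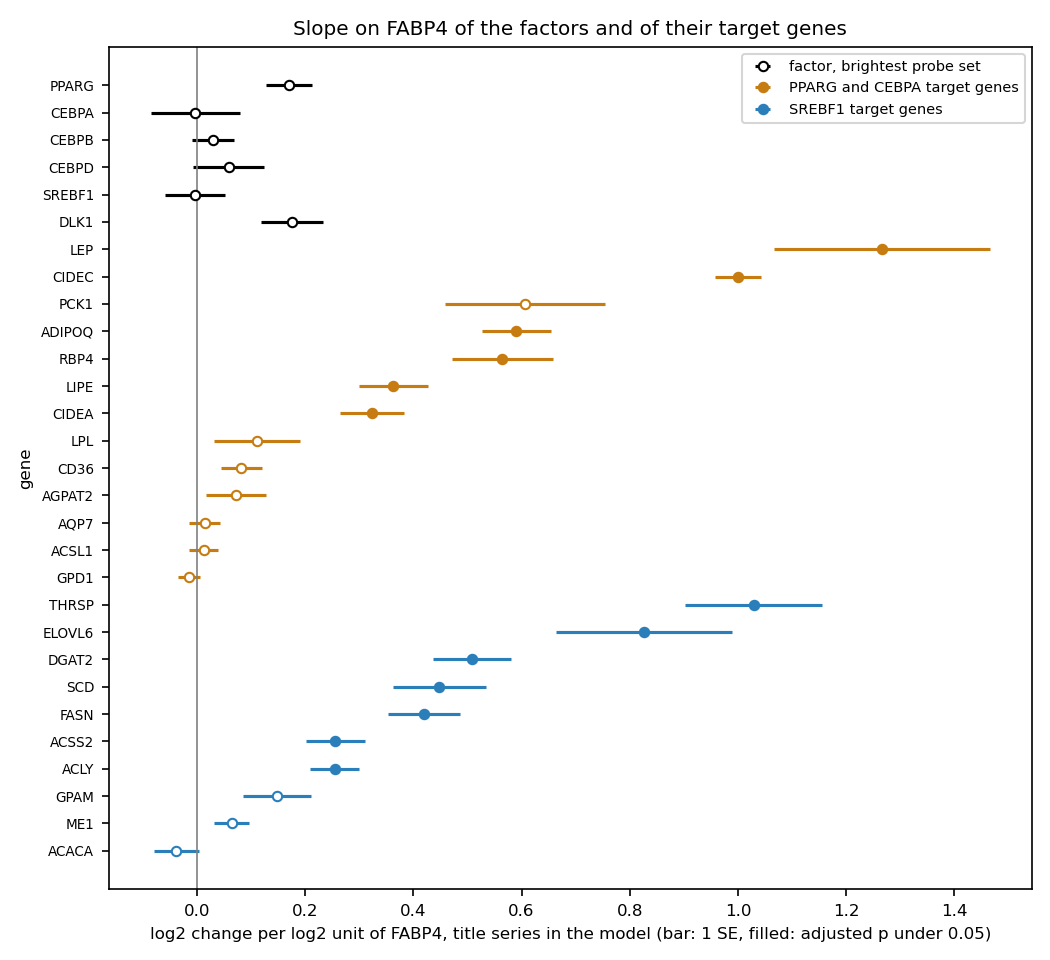
Slope on FABP4 with title series in the model (x axis, log2 units per log2 unit of FABP4, bars of 1 SE) for the 6 genes in black, the PPARG and CEBPA targets in orange and the SREBF1 targets in blue, filled where adjusted p was under 0.05. None of the 6 genes is filled, and 6 of 13 and 7 of 10 target genes are.

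Between the IMF groups 0 genes of either target list were called. The PPARG and CEBPA targets had a median difference of 0.57 log2 units, with 12 of 14 positive, and the SREBF1 targets one of 0.69, with 10 of 10 positive. Over all 9155 genes the median was -0.02, and 44.4% were positive. LEP differed by 3.45 (SE 0.76, adjusted p = 0.818), on a dim probe set that averaged an intensity of 43.9 in high IMF and 11.8 in low IMF. CIDEC differed by 1.94 (SE 0.58), THRSP by 2.45 (SE 0.62) and ACSS2 by 0.64 (SE 0.20). PPARG's own difference was 0.38, and those of SREBF1's 4 probe sets ran from 0.04 to 0.14. Between the title series, 9 of 14 PPARG and CEBPA targets were higher and 2 lower in the S bulls, and 7 of 10 SREBF1 targets were higher and 1 lower. These are 78.6% and 80% called, against 59.5% of all 9155 genes (3118 higher and 2327 lower). AGPAT2, an acyltransferase of triglyceride synthesis, was higher by 1.38 (SE 0.14), CD36, a fatty acid transporter, was lower by -1.20 (SE 0.13), and ACACA, acetyl-CoA carboxylase, was higher by 1.06 (SE 0.12).

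The 10 measured partners of the factors showed no call with IMF or FABP4 (0% and 0.644% of all genes). Of these partners and coregulators of PPARγ and the C/EBPs, 5 had a positive IMF difference, against 44.4% of all genes. In the S bulls 3 of 10 were positive (37.4% of all genes), and in the bulls without S 9 of 10 (53.1% of all genes). TLE3, a corepressor family member that works with PPARγ, differed by 0.34 (SE 0.17) with a slope on FABP4 of 0.09 (SE 0.06). PPARGC1A, a coactivator best known for mitochondrial genes, differed by -0.43 (SE 0.22) with a slope of -0.18 (SE 0.07, adjusted p = 0.470). Between the title series 8 of these 10 were called, 4 in each direction, against 59.5% of all genes. RXRB and RXRA, which pair with PPARγ on DNA, were higher in the S bulls by 1.11 (SE 0.09) and 0.61 (SE 0.09).

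Of 9 measured positive regulators upstream of PPARG and CEBPA, 1 had a positive IMF difference (44.4% of all genes) and 0 were called. In the S bulls 0 of 9 were positive (37.4% of all genes), and in the bulls without S 4 of 9 (53.1% of all genes). KLF5, induced by C/EBPβ and C/EBPδ in mouse preadipocytes, averaged an intensity of 166.7 in high IMF and 236.6 in low IMF (log2 difference -0.47, SE 0.19, adjusted p = 0.818). NR3C1, the glucocorticoid receptor, differed by -0.38 (SE 0.21). BMPR1A, a receptor of bone morphogenetic proteins, was lower in the S bulls (97.8, against 266.5 in the bulls without S; log2 difference -1.51, SE 0.23, adjusted p = 2.53e-05), and STAT5B was higher (0.51, SE 0.09). In all, 1 of the 9 was higher and 3 were lower in the S bulls, or 44.4% called against 59.5% of all genes. The genes of this list with the smallest p for the slope on FABP4 were BMPR1A (-0.14, SE 0.07) and BMP4 (0.09, SE 0.05). Of the 9, 0 passed for this slope (0.644% of all genes).

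Of the inhibitors of adipogenesis 5 of 15 were measured, and 0 were called with IMF or FABP4 (0% and 0.644% of all genes). Of the 5, 4 had a positive IMF difference, against 44.4% of all genes. ID3, which blocks helix-loop-helix factors, differed by -0.11 (SE 0.15) between IMF groups, and CTNNB1, the β-catenin of Wnt signalling, by 0.04 (SE 0.06). CTNNB1 and PDGFRA, a receptor of fat cell precursors, had slopes on FABP4 of 0.05 (SE 0.02, adjusted p = 0.368) and 0.10 (SE 0.04). In the S bulls CTNNB1 was lower by -0.39 (SE 0.06) and ID3 higher by 0.51 (SE 0.15). In all, 1 of the 5 was called higher and 1 lower there, or 40% called against 59.5% of all genes.

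All 10 genes that process SREBF1 or work beside it were measured, and 0 were called with IMF or FABP4 (0% and 0.644% of all genes). Of the 10, 4 had a positive IMF difference, against 44.4% of all genes. SREBF2, the sterol counterpart of SREBF1, averaged 173.0 in high IMF and 138.8 in low IMF (log2 difference 0.31, SE 0.10). INSIG1, which holds SREBP proteins in the endoplasmic reticulum, averaged 447.9 in high IMF and 244.4 in low IMF (0.73, SE 0.27), with a slope on FABP4 of 0.28 (SE 0.08, adjusted p = 0.221). MLX, a partner of the carbohydrate response factor, had a slope of -0.05 (SE 0.02). Between the title series 6 were higher and 2 lower in the S bulls, or 80% called against 59.5% of all genes. SCAP, which escorts SREBP to its proteases, was higher by 1.19 (SE 0.10, adjusted p = 4.07e-08) and NR1H2, a liver X receptor that induces SREBF1, by 0.60 (SE 0.06).

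Genes with the most similar pattern were sought among 8966 probe sets of named genes above the dimmest 40%. Likeness was Pearson's r over 20 arrays after each title series mean was removed. For PPARG the most similar genes were MRAS (0.809), FBLN1 (0.788) and ACER3 (0.784). For DLK1 they were CDH11 (0.811), GANAB (0.801) and SRPX (0.794), and for CEBPD MFAP1 (0.861), PTGES3 (0.845) and MOB3B (0.813). For CEBPB they were PRKCQ (0.782), CD28 (0.767) and SLC6A8 (0.762), and for SREBF1 ENPP5 (0.791), KLF10 (0.791) and KLF4 (0.756). CEBPA had the lowest likeness, to MYL11 (0.708), AKT2 (0.693) and CHMP6 (0.664). These are the top values of that search on the same arrays and are given without a test. KLF4 is also in the list of upstream regulators above.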

How the data were processed

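The data are 20 Affymetrix arrays of bovine Musculus longissimus dorsi, 1 per bull. Per the labels' protocols, RNA came from a TRI Reagent extraction with a DNase step and an RNeasy clean-up, and biotinylated cRNA was made from it. Per the submitters' processing notes, GCOS 1.1.1 and Affymetrix Expression Console 1.1 were used. The authors deposited 1 linear intensity per probe set and array, read as such from the table, which holds no value below 0. The method of summarising probes and any scaling between arrays are not given in the sources used here, and no detection call was used.

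From 24128 probe sets, 112 array controls were removed, and the other 24016 were taken as log2(intensity + 1) and tested without a filter. The platform annotation gave 13292 of them exactly 1 symbol, and the symbols of the 6 genes are the same in the NCBI RefSeq table for cattle. Coordinates are left out, as the table names no build.

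IMF groups and title series were compared with limma 3.58.1 in R 4.3.3 (lmFit and eBayes, two-sided), on the means of 4 sets of 5 bulls that share 1 estimate of the spread, with Benjamini-Hochberg adjustment over all probe sets. Slopes on the brightest FABP4 probe set had title series in the model, and FABP4's own probe sets were left out. Correlations within a title series have two-sided permutation p-values from 100000 resamples (numpy 2.4.6, pandas 2.3.3). The series text names a paired t-test, but the labels pair no animals. The limma code was tested on simulated data. No 2 arrays were identical, and the highest correlation between arrays was 0.970.

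The members, lists, tests and alternatives were chosen with earlier results of these data known. Each gene list is represented by the brightest probe set of a gene. Named were all probe sets of the 6 genes, FABP4, per list the 2 genes with the smallest p in each comparison, and per gene the 3 most similar genes. Target genes called for the FABP4 slope, and those of the same lists that were not, are named beyond this rule. Alternatives were a pseudocount of 16, leaving out the dimmest 40%, quantile normalization, centring on medians, a trended prior, other covariates, and leaving out animals. The number of arrays limits the precision.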

Additional observations from a re-analysis of the deposited data

Results flagged for a closer look

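In each of 56 sets of 5 bulls (4 sets for each of the 13 probe sets and FABP4), the highest or lowest log2 value was checked for its distance from the rest with Dixon's ratio. In 4 of them 1 bull stood apart, and chance gives about 1 in 20. The second CEBPB probe set read 8.95 in low IMF replicate 2, without S, with the next bull at 8.26. The brightest CEBPD probe set read 8.84 in high IMF replicate 1, without S, with the next at 8.55. The second SREBF1 probe set read 9.62 in high IMF replicate 9, an S bull, with the next at 9.08. The dim second DLK1 probe set read 1.09 in low IMF replicate 3, without S, with the next at 2.62. That bull's array is 1 of the 4 with high albumin.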

How the results depend on the processing

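No paired analysis was possible because the labels pair no animals and the replicate numbers here only follow accession order. No alternative called any of the 13 probe sets for IMF or for the FABP4 slope. The unpaired form of the methods' t-test gave 527 probe sets at an unadjusted p under 0.05 and 0 after adjustment. Without any 1 animal, the number of probe sets called for IMF lay between 0 and 1, with 1 without high IMF replicate 4 or low IMF replicate 6. In the S bulls alone, it was 6 without the arrays with high albumin, against 0 with them. For S minus without S it lay between 12001 and 12383, with 6 to 8 of the 13. It was 4 of the 13 without the 4 arrays with high albumin, against 7 with them. CEBPB probe set 2 passed without low IMF replicate 2 (adjusted p = 0.0253), high IMF replicate 5 (0.0427) or low IMF replicate 10 (0.0364), and CEBPD probe set 3 without high IMF replicate 8 (0.0316), all by limma. The brightest SREBF1 probe set missed without low IMF replicate 1 (0.0529). For the FABP4 slope, 104 probe sets were called, against 41 without the arrays with high albumin, 48 with ADIPOQ in place of FABP4, 189 without title series in the model, and 56 to 115 without any 1 animal. That count was 63 without low IMF replicate 5, 56 without low IMF replicate 9 and 62 without high IMF replicate 10. The planned fit on PLIN1 was not run, since no probe set was annotated to it alone. Fewer animals enter the fits without arrays. The cause of the other changes was not tested.

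Some uncalled values changed sign. After centring on array medians, high minus low IMF of CEBPB probe set 2 was 0.00406. In the S bulls, the brightest SREBF1 gave 0.0162 after quantile normalization, 0.0374 after centring and 0.107 without the arrays with high albumin, and the brighter DLK1 gave 0.0767 and 0.0506 under the 2 scalings. For S minus without S, PPARG gave 0.0427 after quantile normalization and 0.0323 after centring, and CEBPA -0.0289 without the arrays with high albumin. The CEBPA slope on FABP4 was 0.00117 with a pseudocount of 16, 0.00532 after quantile normalization, 0.00240 after centring, 0.0967 on ADIPOQ and 0.00317 without title series. The brightest SREBF1 slope was 0.00126 after centring, 0.0147 without the arrays with high albumin, 0.00438 on ADIPOQ and 0.0574 without title series. Without title series the slope of SREBF1 probe set 2 was 0.106 and that of probe set 4 was 0.0331, which was 0.00278 after quantile normalization and 0.000167 after centring. Without the pair of bulls farthest from the median FABP4, r of CEBPA was 0.0520 in the S bulls and -0.147 in the bulls without S, and r of the brightest SREBF1 was -0.0756 in the bulls without S.

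Without any 1 animal, high minus low IMF ran from -0.101 to 0.0415 in CEBPB probe set 2, -0.0491 to 0.165 in SREBF1 probe set 1, -0.0300 to 0.196 in SREBF1 probe set 4 and -0.0300 to 0.448 in DLK1 probe set 2. Among S bulls it ran from -0.0434 to 0.448 in CEBPA, -0.101 to 0.0819 in the brightest SREBF1 and -0.216 to 0.158 in the brighter DLK1. In the brightest CEBPD it was -0.264 there without low IMF replicate 6. Among bulls without S it ran from -0.0221 to 0.248 in the brighter CEBPB, -0.362 to 0.00938 in the brightest CEBPD and -0.0789 to 0.349 in the brightest SREBF1. S minus without S ran from -0.106 to 0.0280 in PPARG and -0.0735 to 0.183 in CEBPA. Slopes ran from -0.0459 to 0.0889 in CEBPA, -0.0324 to 0.0196 in SREBF1 probe set 1, -0.00481 to 0.0711 in probe set 3 and -0.0321 to 0.0376 in probe set 4.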
